A study of Mus musculus with 8 samples.

Results

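The cathepsins described here are 9 protease genes that mouse macrophages use in their endosomes and lysosomes, namely *Ctsb*, *Ctsl*, *Ctss*, *Ctsk*, *Ctsc*, *Ctsh*, *Ctsz*, *Ctsd* and *Ctsa*. They were chosen by name, with earlier results of these data known. Each was found by its Ensembl identifier among the 49315 genes of the count table. All 9 were among the 13051 genes tested. Bone marrow-derived macrophages (BMDMs), primary macrophages grown from C57BL/6 marrow with 10 ng/ml M-CSF, 10% fetal bovine serum and antibiotics, received a gapmeR by lipid transfection. A gapmeR is a short antisense oligonucleotide whose pairing lets RNase H cut the target transcript. The control group was given a negative control gapmeR (replicates 2, 5, 6 and 7) and the other group a gapmeR against the long noncoding RNA *MAARS* (replicates 9, 11, 13 and 15). The labels give the gapmeR as 25 nM and the methods as 25 nmol, and the groups shared everything else that the labels state. The age and sex of the mice, and whether marrow was pooled, are not given in the sources used here. Nothing in the labels says that the 4 libraries of a group came from separate mice or cultures, so the p-values measure only the spread between these libraries.

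Cathepsins are made as inactive proenzymes, routed to the endosomal and lysosomal compartment largely by mannose-6-phosphate receptors, and activated there by proteolysis at acid pH. Most are cysteine proteases of the papain type. *Ctsd* encodes an aspartic protease and *Ctsa* a serine carboxypeptidase. In macrophages they degrade engulfed and autophagic material and shape peptides for antigen presentation, and some are secreted and cleave extracellular matrix.

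Counts from ribodepleted total RNA, summed over all genes, ranged from 19287279 to 20567123 per control library. They ranged from 20839671 to 24541205 per *MAARS* gapmeR library, so every library of the second group held more. Values below are CPM, counts relative to the library total after correction by edgeR's TMM factors, as mean ± SD with n = 4 libraries per group, and the log2 fold change is the *MAARS* gapmeR group over the control group. *MAARS* itself (listed as *Gm14461*) was 13.1 ± 1.36 CPM in the control group and 6.82 ± 0.845 CPM after its gapmeR, a log2 fold change of -0.95 (SE 0.112, edgeR adjusted p = 5.8e-05), with the lowest control library above the highest *MAARS* gapmeR library. Of the 9 macrophage markers examined, all were detected, and their summed level was 17511.4 to 21280.0 CPM in the control libraries and 20413.1 to 23417.9 CPM in the *MAARS* gapmeR libraries. Within that list *Csf1r*, *Cd14* and *Lyz2* were among 5 that rose, and *Fcgr1*, *Cd68* and *Lgals3* were the 3 that fell. *Lyz2* was the largest part of the sum, at 9402.2 ± 1240.4 CPM in the control group and 13169.8 ± 1172.4 CPM after the *MAARS* gapmeR. The sum therefore follows mainly that gene and does not measure macrophage content. Summed lymphocyte markers were at most 0.442 CPM and mast cell markers at most 0.922 CPM in every library.

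After *MAARS* knockdown, 4 of the 9 cathepsins fell and none passed the test for a rise. The 4 were the exopeptidases *Ctsc*, *Ctsh* and *Ctsz* and the endopeptidase *Ctss*, with changes in mean level of -32.7% for *Ctss*, -38.4% for *Ctsz*, -43.95% for *Ctsh* and -47.1% for *Ctsc*. That is 44.4% of the members, where 24% of all genes tested were called lower at an edgeR adjusted p under 0.05, 21.3% were called higher and 45.4% were called in either direction. The count of cathepsins called higher was 0 with edgeR, with DESeq2 and with limma-voom, and it was also 0 at an unadjusted edgeR p under 0.05. The median log2 fold change was -0.13 over the 9 members and 0.01 over all genes tested. The same 4 genes were those whose *MAARS* gapmeR libraries all lay below every control library, a pattern that 22.8% of all genes tested showed, while 19.3% showed the reverse and no cathepsin did. The RNA comes from whole cultures, so fewer cells expressing a gene and less of its RNA per cell cannot be told apart.

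**Figure D1:**
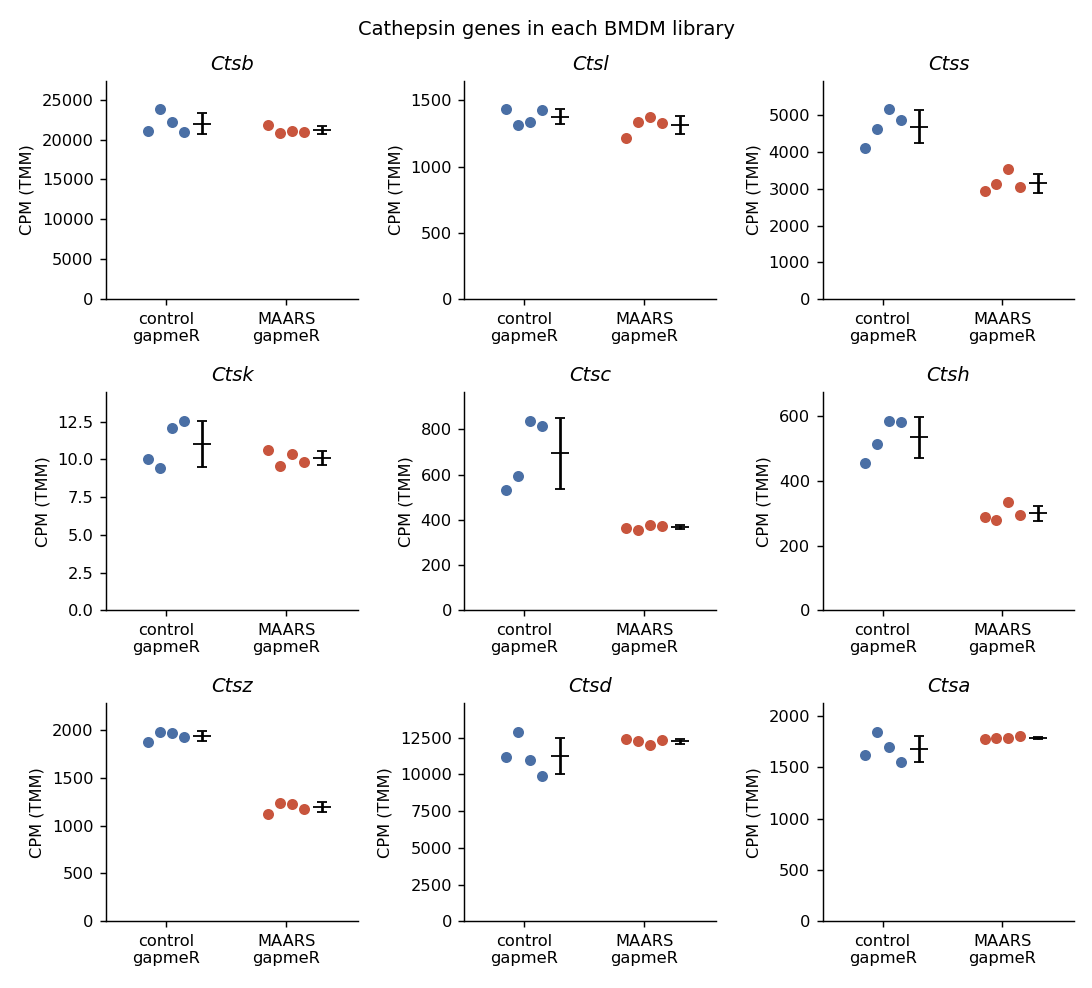
TMM-scaled CPM of the 9 cathepsin genes in each library (points, 4 control gapmeR and 4 MAARS gapmeR), with the mean and SD of each group beside them and each vertical axis starting at 0. The groups are separate for Ctss, Ctsc, Ctsh and Ctsz, all lower after the MAARS gapmeR, and overlap for the other 5 genes.

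The upstream sequences of 3 members are shown because *Ctss* was called lower, its neighbour *Ctsk* was not called, and *Ctsz* had the smallest p of the family. Each is the 250 bases before the RefSeq start on build GRCm38.p6, written 5′ to 3′ on the strand of the gene, with letters of a searched motif in capitals. The *Ctss* window is chr3:95526536-95526785 on the plus strand, the *Ctsk* window chr3:95498960-95499209 on the plus strand and the *Ctsz* window chr2:174439040-174439289 on the minus strand.
Ctss: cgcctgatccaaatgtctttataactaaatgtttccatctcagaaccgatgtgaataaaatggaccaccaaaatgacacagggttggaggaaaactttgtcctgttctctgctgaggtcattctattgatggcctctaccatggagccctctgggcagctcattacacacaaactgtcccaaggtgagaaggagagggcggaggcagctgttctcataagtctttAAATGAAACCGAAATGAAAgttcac
Ctsk: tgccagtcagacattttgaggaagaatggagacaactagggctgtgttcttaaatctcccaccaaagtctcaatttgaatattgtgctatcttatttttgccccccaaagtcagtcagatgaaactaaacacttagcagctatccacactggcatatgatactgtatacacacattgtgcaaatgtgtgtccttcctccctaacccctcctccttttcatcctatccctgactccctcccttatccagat
Ctsz: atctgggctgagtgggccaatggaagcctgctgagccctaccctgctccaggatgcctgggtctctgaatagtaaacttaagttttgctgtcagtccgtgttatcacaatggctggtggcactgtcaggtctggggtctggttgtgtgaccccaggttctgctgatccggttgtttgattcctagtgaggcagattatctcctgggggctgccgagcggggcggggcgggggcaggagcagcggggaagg
The motifs searched on both strands were CACGTG (the E-box core), TCACGTGA, which contains it and is the longer form read by factors of the TFEB family, and AANNGAAA, a core read by interferon regulatory factors. The *Ctss* window held 3 overlapping copies of AANNGAAA, which begin 25, 19 and 14 bases before the start. Among 32851 RefSeq windows of that length, 21.3% held AANNGAAA, 6.02% held CACGTG and 0.785% held TCACGTGA. The *Ctsk* and *Ctsz* windows held none of the 3 motifs, nor did the window of *Ctsc* or the upstream of the 2 windows listed for *Ctsa*. The *Ctsl* window held CACGTG 236 bases before the start and AANNGAAA at 129 and 67 bases. That window lies inside the GENCODE span of *Ctsl* given below.

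CACGTG was also found before RefSeq starts of *Ctsa* and *Ctsd*, and 30 bases around those sites are shown because neither of these genes was called in the test. Both sites shown lie inside the GENCODE gene spans given below, which begin upstream of these RefSeq starts. The *Ctsa* site, at chr2:164833749-164833778 on the plus strand, lies 12 bases before the downstream of its listed starts. The *Ctsd* site, at chr7:142387908-142387937 on the minus strand, lies 98 bases before the RefSeq start, and a further CACGTG lies 245 bases before it.
Ctsa: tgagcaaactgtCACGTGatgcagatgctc
Ctsd: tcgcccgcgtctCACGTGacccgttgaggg
Both sites shown carry the longer TCACGTGA, with the 6 core letters in capitals. RefSeq windows were matched for 7 of the 9 members, and *Ctsb* and *Ctsh* were not among them. A match describes letters only.

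Among the members grouped here as cysteine endopeptidases, *Ctss* alone passed the test. *Ctss* (chr3:95526786-95556403, plus strand) encodes an elastin-cleaving protease that also trims the invariant chain from MHC class II molecules. It was 4104.9, 4626.0, 5152.4 and 4873.5 CPM in control replicates 2, 5, 6 and 7, and 2940.7, 3116.8, 3525.1 and 3033.7 CPM in *MAARS* gapmeR replicates 9, 11, 13 and 15. The groups did not overlap, with 4689.2 ± 444.9 CPM in the control group and 3154.1 ± 257.6 CPM after the *MAARS* gapmeR. *Ctss* fell by 0.57 on the log2 scale (SE 0.0799, edgeR adjusted p = 0.00018). Its change lay between -0.63 and -0.51 over 16 alternative fits.

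*Ctsk* is the next gene upstream of *Ctss* on the same strand (chr3:95499256-95509362), 17423 bases away with no annotated gene between them, and encodes the collagen-degrading protease of osteoclasts. It was 10.0, 9.43, 12.1 and 12.6 CPM in the control libraries and 10.6, 9.59, 10.3 and 9.84 CPM in the *MAARS* gapmeR libraries. The groups overlapped, and the log2 fold change of -0.13 (SE 0.105, edgeR adjusted p = 0.336) had a 95% interval from -0.36 to 0.10. It was -0.21 without control replicate 5 and -0.06 without control replicate 7. *Ctsk* rested on 185 to 256 counts per library, the fewest of the family. Of the 9 osteoclast markers examined, *Calcr* had 0 counts, which allows up to 3 counts per library, and *Oscar* at most 1 count, while *Atp6v0d2* rose from 342.3 ± 7.47 to 469.3 ± 15.8 CPM and *Acp5* fell from 36.3 ± 4.66 to 21.6 ± 3.10 CPM. The summed level of that list was 468.1 to 483.2 CPM in the control libraries and 575 to 609.3 CPM in the *MAARS* gapmeR libraries. Most of that sum was *Atp6v0d2*, so it does not measure osteoclast content. The part of the list in the *Ctsk* values was not tested.

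*Ctsb* (chr14:63122462-63145923, plus strand), a lysosomal protease that acts both within chains and from their carboxyl end, took more counts than any other gene in every library, between 409731 and 523211. Its control values were 21072.7, 23769.5, 22159.4 and 20914.4 CPM and its *MAARS* gapmeR values 21863.4, 20817.9, 21062.2 and 20948.2 CPM. These ranges overlapped, and the log2 fold change of -0.05 (SE 0.0632, edgeR adjusted p = 0.513) had a 95% interval from -0.19 to 0.08. Under upper-quartile scaling, which moved the median of all genes by 0.06, its log2 fold change was 0.0091.

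*Ctsl* (chr13:64359337-64370890, minus strand) encodes a broad lysosomal endopeptidase. It was 1430.3, 1315.1, 1338.4 and 1423.1 CPM in the control libraries and 1218.3, 1339.6, 1371.8 and 1330.7 CPM in the *MAARS* gapmeR libraries. The groups overlapped here too, with a log2 fold change of -0.07 (SE 0.0537, 95% interval -0.18 to 0.05, edgeR adjusted p = 0.339). The intervals of *Ctsb*, *Ctsl* and *Ctsk* all held 0 and all stopped short of the -0.57 measured for *Ctss*.

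The cysteine exopeptidases *Ctsc*, *Ctsh* and *Ctsz* all fell, while *Ctsb*, which also acts from the carboxyl end of chains, was not called. *Ctsc* (chr7:88278085-88310888, plus strand) encodes dipeptidyl peptidase I, which activates the granule serine proteases of leukocytes. Its control values were 531, 591.6, 838.7 and 813.1 CPM, and its *MAARS* gapmeR values 363.1, 355.2, 376.5 and 372.7 CPM. Control replicates 6 and 7 stood well above replicates 2 and 5, yet the lowest control library was above every *MAARS* gapmeR library. *Ctsc* went from 693.6 ± 155.1 to 366.9 ± 9.63 CPM, a log2 fold change of -0.92 (SE 0.127, edgeR adjusted p = 0.000168). The coefficient of variation was 22.4% in the control group and 2.62% after the *MAARS* gapmeR. Leaving out each library in turn moved the log2 fold change between -1.02 and -0.82.

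*Ctsh* (chr9:90054152-90076089, plus strand) encodes an aminopeptidase. It was 454.2, 515.2, 586.1 and 581.3 CPM in the control libraries and 288.1, 280.2, 334.2 and 295.3 CPM in the *MAARS* gapmeR libraries. These did not overlap, and the mean went from 534.2 ± 62.4 to 299.4 ± 23.99 CPM. Its log2 fold change was -0.84 (SE 0.0843, edgeR adjusted p = 1.91e-05), with a 95% interval from -1.02 to -0.65. Control replicates 6 and 7 were again the highest libraries and replicate 2 the lowest control library.

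*Ctsz* (chr2:174427493-174439039, minus strand) encodes cathepsin X, a carboxypeptidase that removes single residues. Its control values were 1869.2, 1978.9, 1962.8 and 1928.9 CPM and its *MAARS* gapmeR values 1125.9, 1236.9, 1227.2 and 1174.5 CPM. Both groups were tight, at 1935.0 ± 48.5 and 1191.1 ± 51.4 CPM, and lay far apart. *Ctsz* fell by 0.70 on the log2 scale (SE 0.0491, edgeR adjusted p = 5.27e-06). By p it stood at rank 31 of the 13051 genes tested, ahead of *Ctsh* at 435, *Ctsc* at 1108 and *Ctss* at 1133.

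The exact two-sided permutation test over the 70 splits of 4 and 4 libraries gave p = 0.0286 for each of *Ctss*, *Ctsc*, *Ctsh* and *Ctsz*, the smallest value that this design allows. Groups that do not overlap always give that value, so it repeats the separation reported above. Of all genes tested, 22.8% were separate and lower and 19.3% separate and higher. *Ctss*, *Ctsc*, *Ctsh* and *Ctsz* were called lower in 16 of 16 alternative fits each. The 95% interval of *Ctss* ran from -0.75 to -0.40, that of *Ctsc* from -1.20 to -0.64 and that of *Ctsz* from -0.81 to -0.59.

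**Figure D2:**
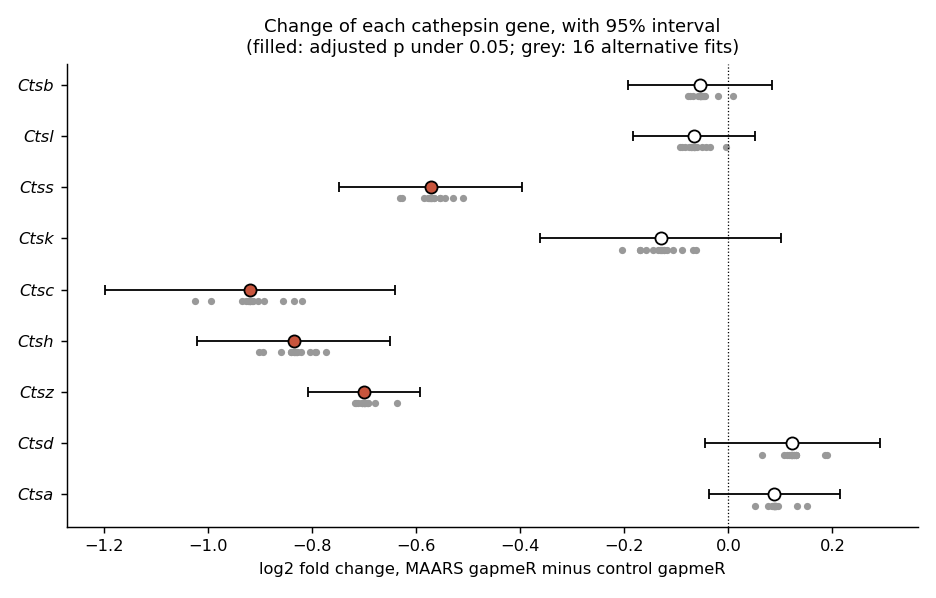
Log2 fold change of each cathepsin gene (horizontal axis, MAARS gapmeR minus control gapmeR) with its 95% interval, filled where the edgeR adjusted p was under 0.05, and 16 alternative fits as grey points below. Ctss, Ctsc, Ctsh and Ctsz sit between -0.57 and -0.92 with every alternative on the same side, and the other 5 intervals include 0.

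The members of the other catalytic classes, *Ctsd* and *Ctsa*, did not pass the test. *Ctsd* (chr7:142375911-142388038, minus strand), the main aspartic protease of lysosomes, was 11203.4, 12892.4, 10977.6 and 9900.7 CPM in the control libraries. In the *MAARS* gapmeR libraries it was 12395.9, 12246.5, 12001.3 and 12325.1 CPM. Control replicate 5 was the highest of all 8 libraries and control replicates 2, 6 and 7 were the lowest. The log2 fold change was 0.12 (SE 0.0766, 95% interval -0.05 to 0.29, edgeR adjusted p = 0.213). Without control replicate 5 it was 0.19 and passed (edgeR adjusted p = 0.022).

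*Ctsa* (chr2:164832873-164841032, plus strand) encodes protective protein, a serine carboxypeptidase that stabilises lysosomal beta-galactosidase and neuraminidase 1. Its control values were 1619, 1847.6, 1696.3 and 1555.5 CPM and its *MAARS* gapmeR values 1775.7, 1781.9, 1784 and 1801.5 CPM. As with *Ctsd*, control replicate 5 was the highest library and the other control libraries the lowest. The log2 fold change was 0.09 (SE 0.0571, 95% interval -0.04 to 0.21, edgeR adjusted p = 0.228). It was 0.13 without control replicate 5 (edgeR adjusted p = 0.045) and 0.15 with upper-quartile scaling (edgeR adjusted p = 0.0385), where the split of calls over all genes was 60.4% higher against 47.0% with TMM.

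Summed over the 9 genes, the cathepsin share of all counts was 4.23%, 4.54%, 4.29% and 4.19% in the control libraries and 4.26%, 4.22%, 4.25% and 4.25% in the *MAARS* gapmeR libraries. The groups overlapped at 4.31 ± 0.157% and 4.24 ± 0.0176%, and the difference of -0.0675 percentage points became 0.0082 without control replicate 5. On the TMM-scaled CPM used elsewhere, the sum was 42003.2 to 47545.7 in the control libraries. It was 41184.5 to 41981.7 in the *MAARS* gapmeR libraries, narrowly below every control library. Whether the family total differed thus depends on the scaling, and it was not tested. Within the cathepsin counts the make-up shifted. *Ctss* went from 10.6 ± 1.07% to 7.59 ± 0.619% of the cathepsin counts and *Ctsz* from 4.39 ± 0.177% to 2.87 ± 0.141%. *Ctsc* went from 1.58 ± 0.379% to 0.883 ± 0.0226% and *Ctsh* from 1.21 ± 0.158% to 0.721 ± 0.056%. The shares of *Ctsd*, *Ctsb* and *Ctsa* were higher in every *MAARS* gapmeR library, *Ctsd* going from 25.4 ± 1.65% to 29.5 ± 0.478%, *Ctsb* from 49.8 ± 0.184% to 50.97 ± 0.746% and *Ctsa* from 3.80 ± 0.0764% to 4.30 ± 0.0578%. Shares of a fixed total move against each other, so these 3 are not separate rises, and no test was made on them.

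**Figure D3:**
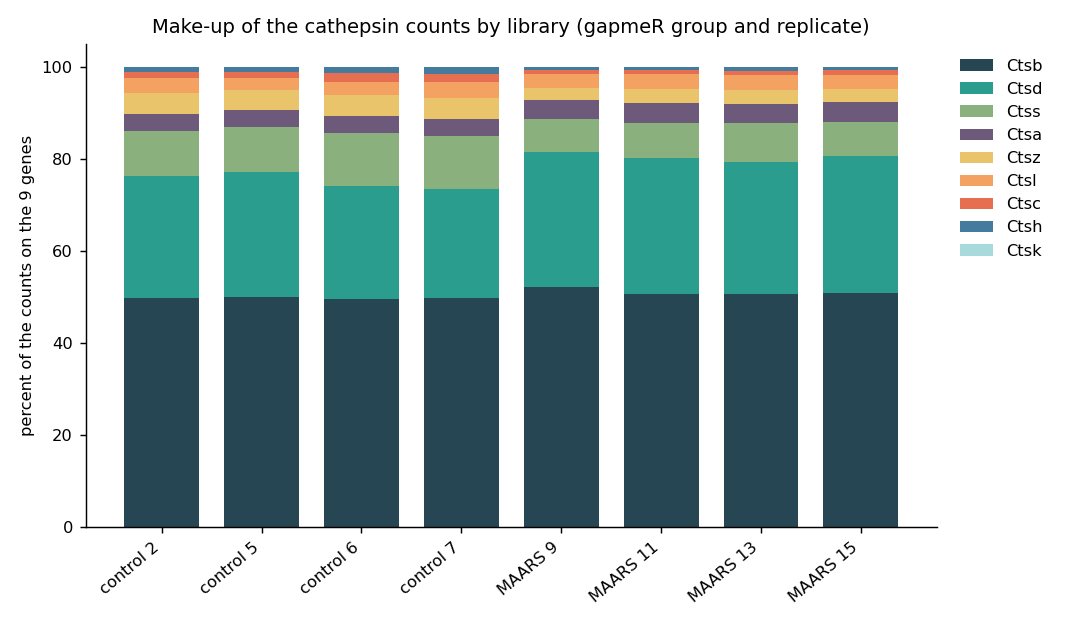
Percent of the counts on the 9 cathepsin genes that fell on each gene (stacked bars, not corrected for length), for the 4 control gapmeR and 4 MAARS gapmeR libraries by replicate number. The Ctss segment averages 10.6% in the control libraries and 7.59% after the MAARS gapmeR, and the Ctsd segment 25.4% and 29.5%.

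Levels of different cathepsins were compared as CPM per kilobase of merged exon. In the control group the order was *Ctsd* (4782.4 ± 526.4), *Ctsb* (3632.3 ± 217.4), *Ctss* (3453.0 ± 327.6) and *Ctsz* (1342.8 ± 33.7). *Ctsa* (356.2 ± 26.7), *Ctsl* (212.2 ± 9.03), *Ctsc* (119.4 ± 26.7), *Ctsh* (118.7 ± 13.9) and *Ctsk* (7.30 ± 1.02) followed. The library values of *Ctsb* and *Ctss* overlapped there, as did those of *Ctsc* and *Ctsh*. After the *MAARS* gapmeR *Ctss* (2322.6 ± 189.7) no longer overlapped *Ctsb* (3499.1 ± 77.8), and only *Ctsh* (66.6 ± 5.33) and *Ctsc* (63.2 ± 1.66) did. By longest, principal and shortest principal transcript, 9, 7 and 5 of the 9 genes kept their place in the control group, and 7, 9 and 7 after the *MAARS* gapmeR. With each of these lengths *Ctsb* and *Ctss* were already separate in the control group, and *Ctsd* overlapped *Ctsb* there instead. The merged exons of *Ctsl* span 6489 bases and its shortest principal transcript 1971, which moved its control level to 698.5, above *Ctsa* at 460.7 on that scale.

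**Figure D4:**
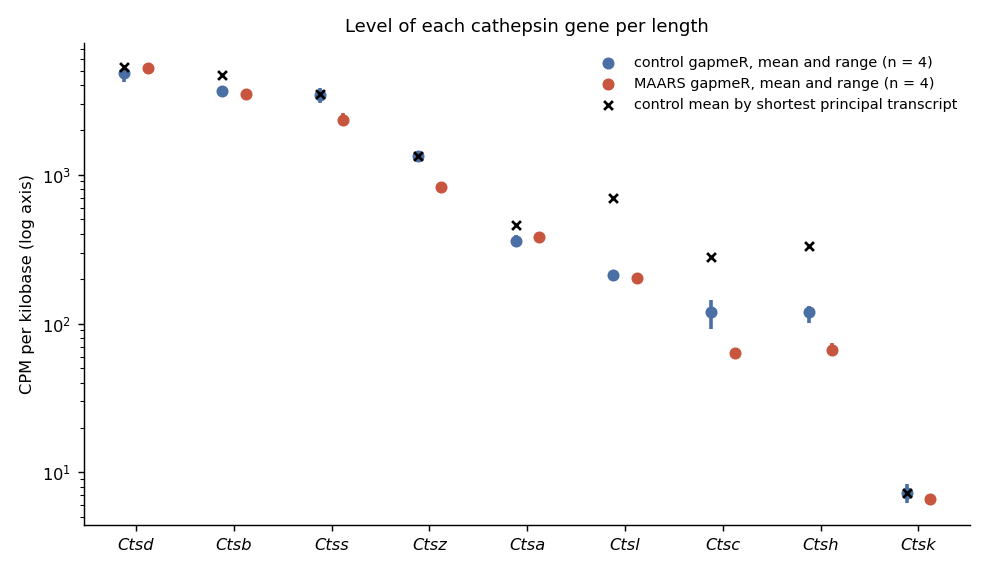
Mean (point) and range (line) of CPM per kilobase of merged exon on a log axis for each cathepsin gene in 4 control gapmeR and 4 MAARS gapmeR libraries, with crosses at the control mean by the shortest principal transcript. Ctsd, Ctsb and Ctss have the highest levels, and the place of Ctsl depends on the length used.

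Exons of some members overlap other genes, and the sources used here do not state whether the counting used strand. On the same strand, 34.4% of the exonic bases of *Ctsd* lie in *Gm49369* and 6.09% of those of *Ctsl* in *Gm49230*. On the opposite strand the overlap was 26.8% for *Ctsl*, 17.4% for *Ctsa*, 12.8% for *Ctsb* and 0.694% for *Ctsz*. *Ctsc*, *Ctsh*, *Ctsk* and *Ctss* overlap no annotated exon of another gene. No cathepsin shares a stretch of 50 bases with another cathepsin, and such stretches shared with any other gene made up at most 0.482% in the 4 genes that fell, against 32.4% in *Ctsd* and 26.3% in *Ctsl*.

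The libraries of a group did not vary in step for all members. As a description over the 8 libraries, which share their scaling, the correlation of deviations from the group means was r = 0.934 for *Ctsh* with *Ctss*, 0.86 for *Ctsc* with *Ctsh* and 0.929 for *Ctsa* with *Ctsd*. It was -0.828 for *Ctsd* with *Ctsk*, the lowest of all pairs. In *Ctsc*, *Ctsh* and *Ctss*, control replicates 6 and 7 were both above replicates 2 and 5, so the r values among these genes partly follow that split. Among the genes that fell, *Ctsz* had only 0.224 with *Ctsc*, 0.416 with *Ctsh* and 0.68 with *Ctss*. *Ctsc* had 0.88 with *Ctsk*, which was not called, and *Ctsa* had 0.903 with *Ctsb*. Other genes were compared by log2 CPM over the 8 libraries with the group difference left in, so these r values include it. The genes most like *Ctsz* were *Gm6377* (r = 0.997), *Bco2* (r = 0.996) and *Slfn3* (r = 0.996), with log2 fold changes of -1.15, -1.26 and -2.23. Those most like *Ctsd* were *Rps19* (r = 0.987), *Dhrs1* (r = 0.974) and *Serf2* (r = 0.973).

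Genes that act with the cathepsins were examined in 9 lists, chosen with earlier results of these data known. The lists held 76 genes in all, of which 51 were tested. Of these, 7 rose (13.7%) and 18 fell (35.3%), where 21.3% of all genes tested were called higher and 24% lower, and the counts of the single lists are to be read against those shares. The list for MHC class II loading alone held 7 of the falls, among 8 tested genes, and no other list held more than 3. Of 5 further cathepsins, *Ctsg* and *Ctsw* were under the filter. *Ctsf*, another cysteine cathepsin, rose from 11.02 ± 2.60 to 18.01 ± 2.23 CPM (log2 fold change 0.71, edgeR adjusted p = 0.00241), and its groups did not overlap. *Ctse*, an aspartic cathepsin of endosomes, fell from 3.92 ± 0.516 to 2.79 ± 0.567 CPM (log2 fold change -0.49, edgeR adjusted p = 0.0387), a call lost in 6 of 16 alternative fits. *Ctso* had a log2 fold change of -0.12 (edgeR adjusted p = 0.0602). The 9 placental cathepsins, a rodent cluster expressed in trophoblast, had 0 counts in every library, which allows up to 3 counts per library.

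Among 12 inhibitors of cathepsins, 7 were tested, 1 rose and 2 fell. *Cst7* encodes cystatin F, an inhibitor of cathepsin C and related enzymes in immune cells. It was 5.33, 4.79, 9.52 and 9.23 CPM in the control libraries and 1.94, 1.75, 2.34 and 1.65 CPM in the *MAARS* gapmeR libraries. Its log2 fold change was -1.91 (SE 0.248, edgeR adjusted p = 0.00011), and control replicates 6 and 7 were the highest, as for *Ctsc*. *Cstb*, the cytosolic inhibitor stefin B, fell from 458.8 ± 12.02 to 344.7 ± 10.1 CPM (log2 fold change -0.41, edgeR adjusted p = 2.24e-05). *Serpinb6a* rose by a log2 fold change of 0.30 (edgeR adjusted p = 0.00238), and *Cst3*, the secreted inhibitor cystatin C, had a log2 fold change of -0.02 (edgeR adjusted p = 0.814). *Ctla2a*, *Ctla2b* and *Serpinb1a* had log2 fold changes of 0.24, 0.04 and -0.09 and did not pass.

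Of 12 genes for the sorting and activation of lysosomal proteins, all were tested, 1 rose and 2 fell. *Sort1*, encoding the sorting receptor sortilin, was 104.7, 118.8, 82.8 and 67.5 CPM in the control libraries and 265.5, 237.1, 234.8 and 229.7 CPM in the *MAARS* gapmeR libraries. Its log2 fold change was 1.37 (SE 0.14, edgeR adjusted p = 2.05e-05), with the groups well apart. The mannose-6-phosphate receptor genes *M6pr* and *Igf2r* had log2 fold changes of -0.06 and -0.08, and *Gnptab*, *Gnptg* and *Nagpa*, which build that tag, had -0.02, -0.09 and -0.04. None of these 5 passed (edgeR adjusted p between 0.154 and 0.79). *Lgmn*, encoding legumain, which processes several cathepsins, went from 2121.3 ± 263 to 2035.8 ± 80.6 CPM without passing. *Lamp2* and *Hspa8*, of chaperone-mediated autophagy, each fell by 0.20 on the log2 scale (edgeR adjusted p = 0.0147 and 0.00645), the call of *Lamp2* being lost with upper-quartile factors, while *Psap*, *Scarb2* and *Lamp1* had log2 fold changes of 0.06, 0.10 and 0.02 and did not pass.

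The partners of *Ctsa* moved in different directions. *Glb1*, beta-galactosidase, rose from 91.5 ± 11.9 to 120.7 ± 3.53 CPM (log2 fold change 0.40, edgeR adjusted p = 0.00174). *Galns*, a sulfatase found in the same complex, fell from 172.4 ± 11.3 to 148.4 ± 7.45 CPM (log2 fold change -0.22, edgeR adjusted p = 0.00871). *Neu1*, neuraminidase 1, had a log2 fold change of -0.07 (edgeR adjusted p = 0.235). Of 6 other lysosomal peptidases, *Cpq* and *Napsa* fell by 0.33 and 0.35 on the log2 scale (edgeR adjusted p = 0.00591 and 0.00187). *Dpp7* rose by 0.17 (edgeR adjusted p = 0.0398, a call lost in 6 of the 8 fits without 1 library), and *Tpp1*, *Prcp* and *Scpep1*, at 0.02, 0.03 and 0.03, did not pass.

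The substrate pathway of *Ctss* is MHC class II loading, and 7 of the 8 tested genes of that list of 10 fell. The median log2 fold change of the list was -1.11, where 24% of all genes tested were called lower and their median was 0.01. As the list was chosen with earlier results of these data known, that contrast is a description only. *Cd74*, the invariant chain that *Ctss* cleaves, was 82.4, 100.7, 144.8 and 143 CPM in the control libraries and 54.4, 50.4, 58.5 and 58.1 CPM in the *MAARS* gapmeR libraries. These did not overlap, at a log2 fold change of -1.09 (SE 0.155, edgeR adjusted p = 0.000206). *H2-Aa* and *H2-Ab1*, the class II chains, fell by 1.23 and 1.18 on the log2 scale (edgeR adjusted p = 0.000195 and 7.41e-05). *H2-DMb2*, at 0.39 (edgeR adjusted p = 0.0837), was the tested gene that did not fall. Dendritic cell markers, cells rich in class II, summed to 1.18 to 2.81 CPM in the control libraries and 1.52 to 1.94 CPM in the *MAARS* gapmeR libraries. Only 1 of these 7 markers was tested, and single markers moved in different directions. The sum therefore does not measure dendritic cell content. The part of such cells in the class II values was not tested.

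Of 10 serine proteases that cathepsin C activates, 2 passed the filter, *Elane* and *Prtn3*, each at most 3.29 CPM, and neither was called. The neutrophil markers, which share *Elane*, summed to 72.8 to 210.8 CPM in the control libraries and 74.7 to 120.8 CPM in the *MAARS* gapmeR libraries, with 0 of their 7 tested genes called, and their part in the *Ctsc* values was not tested. Fibroblast markers summed to 459.6 to 1047.2 CPM and 719.5 to 1236.9 CPM in the same order, also with none called.

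Of 10 transcription factors known for lysosomal or cathepsin genes, 2 rose and 3 fell. *Irf1*, a regulator of interferon-responsive genes, went from 106.7 ± 17.5 to 66.5 ± 7.15 CPM (log2 fold change -0.68, edgeR adjusted p = 0.00056). *Spi1*, encoding the macrophage factor PU.1, fell by 0.39 on the log2 scale (edgeR adjusted p = 0.000335) and *Irf8* by 0.21 (edgeR adjusted p = 0.0242, lost in 4 of 16 alternative fits). *Tfeb*, the factor best known for driving lysosomal genes, had a log2 fold change of 0.06 (edgeR adjusted p = 0.423), and *Tfe3*, *Tfec*, *Nfatc1* and *Usf1* did not pass either. *Usf2*, which reads E-boxes, rose by 0.32 (edgeR adjusted p = 0.000256) and *Mitf* by 0.19 (edgeR adjusted p = 0.043, lost in 6 of the 8 fits without 1 library).

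**Figure D5:**
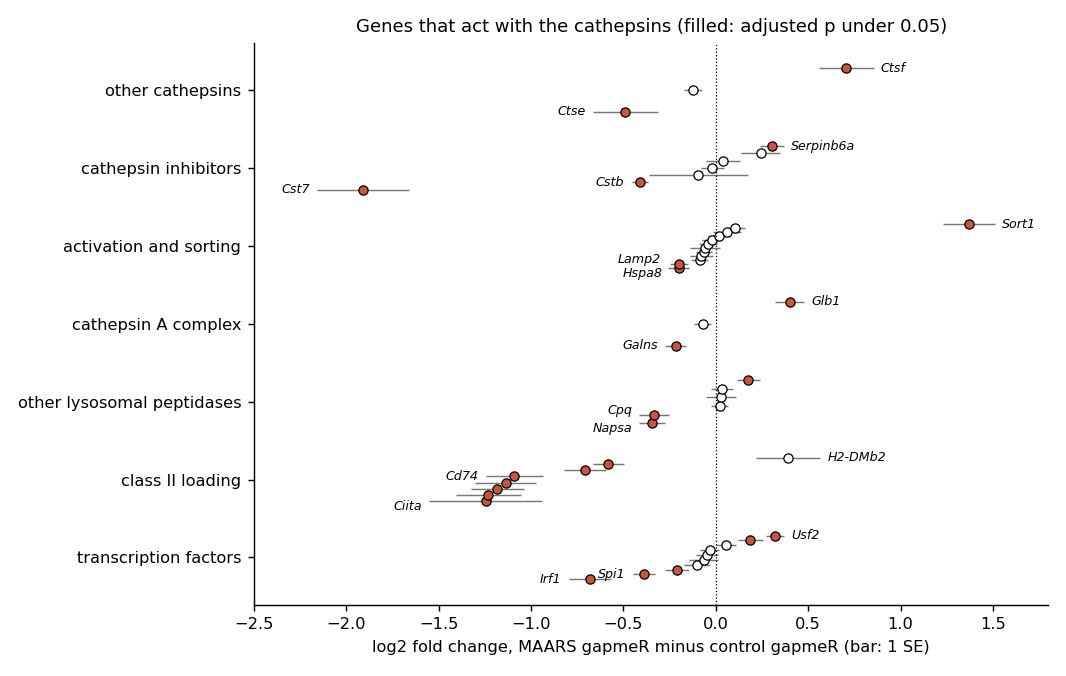
Log2 fold change (horizontal axis, MAARS gapmeR minus control gapmeR, bar of 1 SE) of the tested genes in 7 lists that act with the cathepsins, 1 point per gene, filled where the edgeR adjusted p was under 0.05. Class II loading genes lie to the left of 0 except H2-DMb2, Cst7 is the lowest point at -1.91, and Sort1 the highest at 1.37.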

How the data were processed

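RNA-Seq of ribodepleted total RNA, sequenced as paired reads of 100 nt, was measured in 4 control gapmeR and 4 *MAARS* gapmeR libraries of mouse BMDMs. According to the submitters' processing notes and the methods, reads were trimmed with Trimmomatic 0.36, aligned with STAR 2.5.2b to GRCm38 (mm10) and assigned to genes with featureCounts of Subread 1.5.2. The deposited values are the raw counts per gene that the authors obtained, without normalization. The strand setting, the handling of reads that map to several places and the use of fragments or reads are not given in the sources used here.

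Counts were analysed in R 4.3.3 with edgeR 4.0.16, limma 3.58.1 and DESeq2 1.42.0. All 8 count columns were assigned by their labels. Genes were retained by filterByExpr (minimum count 10, minimum total 15), scaled by TMM (factors 0.955 to 1.03) and tested with the edgeR quasi-likelihood F test, with Benjamini-Hochberg adjustment over 13051 genes and a threshold of 0.05. Replicates varied with a common dispersion of 0.00724. CPM of single genes was also compared by exact permutation. Gene positions, exon lengths and overlaps were taken from GENCODE M21 on GRCm38, which held 99.3% of the deposited genes, and promoter windows from RefSeq on GRCm38.p6. The code was tested on simulated data.

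The cathepsins and the lists of related genes were chosen with earlier results of these data known. Named were *MAARS*, the members, every tested gene of the 5 lists of other cathepsins, inhibitors, sorting, cathepsin A partners and lysosomal peptidases, up to 3 called genes per direction of each other list by p, and the 3 genes most like the member with the smallest p in each direction. *H2-DMb2*, *Elane*, *Prtn3*, *Calcr*, *Oscar*, *Tfeb*, *Tfe3*, *Tfec*, *Nfatc1* and *Usf1* were named beyond that rule after their values were seen. Alternatives were DESeq2, limma-voom, RLE and upper-quartile factors, robust estimation of the prior, a test without filtering, a filter on a mean of 10 counts, thinning to the smallest library total, other thresholds, other gene lengths and each library left out in turn. Levels by principal transcripts were added after seeing the data. Protein sequences were not used here.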

Additional observations from a re-analysis of the deposited data

Results flagged for a closer look

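No cathepsin had a library far from the others of its group. Among 126 groups of 4 libraries, over 63 named genes, 5 had such a library by Dixon's 95% criterion, and chance alone marks about 1 in 20 groups. *Glb1* was 115 CPM in *MAARS* gapmeR replicate 13, with the next library at 122. *Scpep1* was 581 CPM in *MAARS* gapmeR replicate 9, with the next at 552. *H2-Ab1* was 12.1 CPM in *MAARS* gapmeR replicate 11, with the next at 13.6. *Cd14* was 187 CPM in *MAARS* gapmeR replicate 15, with the next at 161. *Serf2* was 219 CPM in *MAARS* gapmeR replicate 9, with the next at 209.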

How the results depend on the processing

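*Ctss*, *Ctsc*, *Ctsh* and *Ctsz* kept their direction and their call in all 16 alternative fits, with edgeR, DESeq2 or limma-voom adjusted p of at most 0.0012, 0.00156, 0.000165 and 5.16e-05, and 4 cathepsins were called lower in each of them. With a fold change of at least 1.5 asked for as well, *Ctss* dropped out and 3 were called. With upper-quartile factors 1 cathepsin was called higher, *Ctsa* at 0.15, and the log2 fold change of *Ctsb* turned to 0.0091. Without control replicate 5 there were 2, *Ctsa* at 0.13 and *Ctsd* at 0.19. Leaving out each library in turn, the count called higher ranged from 0 to 2, *Ctsa* from 0.052 to 0.13, *Ctsd* from 0.065 to 0.19, *Ctsk* from -0.21 to -0.062, *Ctsl* from -0.094 to -0.036, *Ctsb* from -0.078 to -0.020, and the difference in the cathepsin share of all counts from -0.108 to 0.0082 percentage points. The cause was not tested. With a fold change of at least 1.5 as well, 959 genes were called higher and 823 lower, and at an unadjusted p under 0.0001, 718 and 1126, where the main threshold gave 2782 and 3137. In the related lists the same thresholds gave 2 higher and 8 lower, and 2 and 10. In the order of means over all 8 libraries, 7 of 9 genes kept their place with each of the 3 other gene lengths, and within a group 5 to 9 did.

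Of 848 values of other named genes, 18 turned sign, none of them past the threshold. With upper-quartile factors these were *Cst3* at 0.043, *Lgmn* at 0.0034, *Gnptab* at 0.044 and *Nagpa* at 0.019. Without 1 library in turn, the log2 fold change ranged from -0.061 to 0.021 for *Cst3*, from -0.028 to 0.11 for *Ctla2b*, from -0.26 to 0.13 for *Serpinb1a*, from -0.054 to 0.016 for *Gnptab*, from -0.012 to 0.064 for *Lamp1*, from -0.010 to 0.040 for *Tpp1*, from -0.038 to 0.091 for *Prcp* and from -0.0036 to 0.082 for *Scpep1*. A further 23 values lost their call and 9 gained it.

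No paired analysis was possible because the groups share no replicate number. With 185 to 256 counts per library, *Ctsk* was measured least precisely among the 5 members that did not pass. The design of 4 against 4 libraries cannot give an exact permutation p under 0.0286.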
